A study of Mus musculus with 24 samples.

Results

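The 34 genes described here encode proteins of the presynaptic terminal that store, dock, release and recycle synaptic vesicles. They were chosen as a list of symbols, matched through their Ensembl mouse identifiers to 34 of the 33846 rows of the gene table, and all 34 had enough counts to be tested. The samples were mouse retinal organoids, retina-like tissue differentiated from embryonic stem cells, kept in 3 culture formats, and RNA abundance was measured by strand-specific, paired-end sequencing of polyadenylated RNA in 24 libraries. The rotating-wall bioreactor (RWB) cultures held optic cups that had been dissected at D10, SSCd cultures held dissected optic cups under static conditions, and SSCi cultures held intact organoids under static conditions. RWB was sampled at D18 (2 libraries), D22 (3) and D25 (3), SSCd at D18, D22 and D28 (3 each), and SSCi at D18 (2), D25 (2) and D32 (3). All groups were wild type: per the labels, the stem cells were a line carrying the Nrl-GFP transgene, a rod photoreceptor reporter, and the R1 clone, and which clone gave which library is not stated. All were moved at D7 to a maturation medium with N2, taurine, 9-cis retinal and IGF1. Non-essential amino acids, B27 without vitamin A and serum entered the medium at D18 for the dissected cups of both formats. For the intact organoids they entered at D26. The whole course of each culture takes in this change, so day and medium cannot be told apart there. The same holds from D18 to D22 in RWB and SSCd and from D25 to D32 in SSCi. The time from D18 to D25 in SSCi lies before the change. The times from D22 to D25 in RWB and from D22 to D28 in SSCd lie after it. The design text describes experiments repeated 2 or 3 times as biological replicates.

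A nerve terminal releases transmitter when vesicles that have been filled, docked at the active zone and primed fuse with the plasma membrane. Fusion is driven by the SNARE complex of syntaxin, SNAP-25 and synaptobrevin, is held ready by complexins and is triggered by calcium binding to synaptotagmin. In the retina, photoreceptors and bipolar cells release glutamate continuously from ribbon synapses, which use syntaxin 3 and hold no synapsin, whereas the conventional synapses of amacrine cells use syntaxin 1 and hold synapsins.

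Levels are given in CPM, a gene's count relative to the library total after scaling for library composition. Changes are log2 differences with their standard error (SE) from edgeR's quasi-likelihood test across all 16792 genes tested, and a gene is said to have risen or fallen where its Benjamini-Hochberg adjusted p is under 0.05. The libraries held 13284632 to 21604446 estimated counts. In 4 libraries the mitochondrial share of counts was 8.26% to 13.1% (replicate 1 of RWB D22, RWB D25, SSCd D18 and SSCd D22), against 2.46% to 5.76% in the others. SSCi D18 replicate 1 stood apart by its mesenchyme markers, which summed to 6740 CPM against 31.4 CPM in SSCi D18 replicate 2. The retinal label was checked on photoreceptor markers: all 10 were in the table, none was under 1 CPM in every library, and their sum went from 1140 to 1420 CPM at RWB D18 to 4750 to 5580 CPM at RWB D25. The same sum went from 1500 to 1800 CPM at SSCd D18 to 3950 to 9400 CPM at D28, and from 814 to 1190 CPM at SSCi D18 to 6740 to 8270 CPM at D32. Of the 10 markers, 8 rose in each culture, while none fell in RWB, 2 in SSCd and 1 in SSCi (shares over all genes follow below). Prdm1 went from 255, 259 and 299 CPM at SSCd D18 to 102, 72.6 and 51.7 CPM at D28. Otx2 went from 760, 612 and 773 CPM to 502, 437 and 353 CPM there. Summed progenitor and cell cycle markers went the other way, from 3320 to 3410 CPM to 217 to 343 CPM in RWB, from 2350 to 3960 CPM to 130 to 273 CPM in SSCd and from 3370 to 4240 CPM to 164 to 192 CPM in SSCi. Ganglion cell markers went from 285 to 580 CPM to 70.6 to 91.2 CPM in RWB, from 174 to 390 CPM to 112 to 157 CPM in SSCd and from 353 to 407 CPM to 203 to 219 CPM in SSCi. These shifts run alongside every change over days given here, their part in the results was not tested, and in bulk RNA fewer cells of a type and less RNA per cell cannot be told apart.

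Most of the presynaptic genes rose between D18 and the last day of each culture. In RWB, 23 of the 34 rose and 2 fell from D18 to D25, where 14.9% of all genes tested rose and 14.0% fell. In SSCd, 23 rose and none fell from D18 to D28, against 17.5% and 17.1% of all genes. In SSCi, 26 rose and 1 fell from D18 to D32, against 16.2% and 20.5% of all genes. The median log2 change of the 34 genes was 1.40 in RWB, 1.46 in SSCd and 1.75 in SSCi, where the medians over all genes tested were 0.06, 0.02 and -0.05. Stx1a, Vamp1, Syt2, Syt11, Sv2c and Unc13a passed the test in none of the 14 comparisons made. In the fit of RWB D18 and D25 alone 17 of the 25 RWB calls were made, without those of Dnajc5, Syn2, Sypl, Cplx2, Unc13b, Rph3a, Slc17a6 and Erc2. The plot of levels shows the 34 genes by role.

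**Figure D1:**
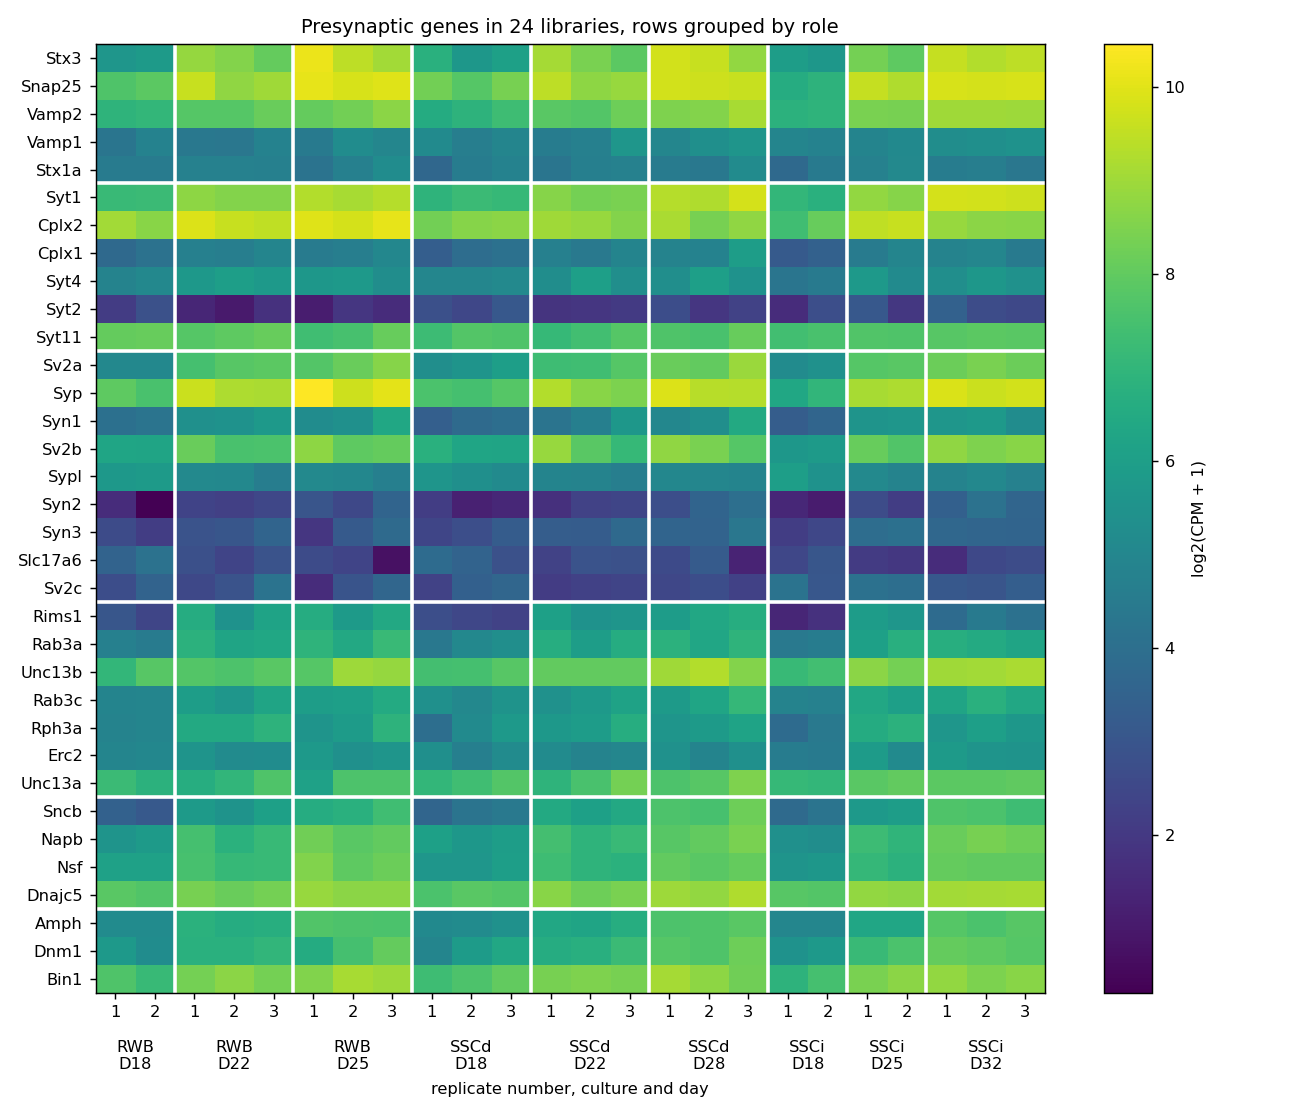
Level of each of the 34 presynaptic genes (rows, grouped by role, white lines between roles) in each of the 24 libraries (columns, grouped by culture and day), as log2(CPM + 1) on the colour scale, where yellow is high. Most rows turn lighter from D18 to the last day within RWB, SSCd and SSCi, while Sypl and Slc17a6 turn darker.

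The SNARE genes divided between members that rose several-fold and members that did not pass the test: Stx3, Snap25 and Vamp2 rose in all 3 cultures, and Stx1a and Vamp1 in none. Stx3 (minus strand of chr19:11775118-11819403, GRCm38) encodes syntaxin 3, the plasma membrane SNARE of ribbon synapses, and had the largest log2 change of the 34 genes in RWB and SSCi. RWB libraries held Stx3 at 49.7 and 55.9 CPM at D18, 457, 384 and 266 CPM at D22 and 1142, 707 and 533 CPM at D25. SSCd libraries gave Stx3 levels of 107, 50.4 and 67.4 CPM at D18, 539, 341 and 239 CPM at D22 and 859, 779 and 451 CPM at D28. In intact organoids Stx3 stood at 61.6 and 50.4 CPM at D18, 322 and 245 CPM at D25 and 749.9, 632 and 704 CPM at D32. The lowest last-day library of each culture lay above the highest D18 library, and the whole-course changes were 3.91 ± 0.44 (SE, adjusted p = 1.99e-06) in RWB, 3.22 ± 0.36 (SE, adjusted p = 9.98e-07) in SSCd and 3.63 ± 0.43 (SE, adjusted p = 2.19e-06) in SSCi.

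Snap25 (plus strand of chr2:136713453-136782428) encodes the plasma membrane SNARE that pairs with syntaxin. Bioreactor libraries held Snap25 at 199.8 and 239.6 CPM at D18, 775, 432 and 523 CPM at D22 and 1092, 921 and 986 CPM at D25. The SSCd values of Snap25 were 311, 218 and 335 CPM at D18, 702, 426 and 474 CPM at D22 and 861, 815 and 786 CPM at D28. The SSCi values of Snap25 were 96.9 and 118 CPM at D18, 753 and 610.0 CPM at D25 and 932, 905 and 922 CPM at D32. D18 and last-day libraries did not overlap in any culture, and Snap25 rose by 2.19 ± 0.27 (SE, adjusted p = 4.42e-06) in RWB, 1.51 ± 0.22 (SE, adjusted p = 2.61e-05) in SSCd and 3.10 ± 0.28 (SE, adjusted p = 8.13e-08) in SSCi. Its D18 level was already lower in SSCi than in SSCd, a difference of 1.42 ± 0.26 (SE, adjusted p = 0.00734) between groups that did not overlap. Snap25 was the only 1 of the 34 genes called higher in SSCd than in SSCi at D18, where 0.351% of all genes were called higher in SSCd. The call was lost in the fit of these 2 groups alone, without SSCd D18 replicate 3 or without SSCi D18 replicate 1, the library with high mesenchyme markers.

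Vamp2 encodes synaptobrevin 2, the SNARE on the vesicle. RWB gave Vamp2 levels of 118 and 129 CPM at D18, 219, 219.9 and 279 CPM at D22 and 266, 316 and 412 CPM at D25. SSCd gave Vamp2 levels of 94.2, 118 and 157 CPM at D18, 229, 214 and 295 CPM at D22 and 364, 382 and 566 CPM at D28. SSCi gave Vamp2 levels of 114 and 118 CPM at D18, 345 and 334 CPM at D25 and 522, 518 and 496 CPM at D32. The log2 increase was 1.43 ± 0.24 (SE, adjusted p = 0.000158) in RWB, 1.83 ± 0.21 (SE, adjusted p = 1.56e-06) in SSCd and 2.14 ± 0.25 (SE, adjusted p = 1.69e-06) in SSCi, and no D18 library reached a last-day library. Stx1a, the syntaxin of conventional synapses, lay between 12 and 36.8 CPM in all 24 libraries, and Vamp1, the synaptobrevin 1 gene, between 18.0 and 49.3 CPM. Neither passed the test in any comparison, and D18 and last-day libraries overlapped in all 3 cultures for Stx1a and in RWB and SSCd for Vamp1.

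The transcript makeup of Stx3 also differed between days: the transcript Stx3-203 took a growing share of the gene's estimated counts and Stx3-202 a shrinking one. The transcripts differ in an alternative coding exon of 111 bases, of which 43 differ (61.3% identical). Both exons are shown because they hold bases that tell the transcripts apart. How far the shift in share rests on reads from these exons was not tested. They are read on the minus strand of chr19 in GRCm38, with the differing bases in capitals.
Stx3-203, chr19:11782800-11782910: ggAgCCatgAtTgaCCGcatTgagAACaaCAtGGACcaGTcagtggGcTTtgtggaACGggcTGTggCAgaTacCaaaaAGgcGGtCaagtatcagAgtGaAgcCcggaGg
Stx3-202, chr19:11783026-11783136: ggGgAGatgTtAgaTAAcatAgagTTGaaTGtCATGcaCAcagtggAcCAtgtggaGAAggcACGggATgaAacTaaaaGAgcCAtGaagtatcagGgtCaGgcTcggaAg
The transcripts also end in different coding exons, of 75 bases at chr19:11777096-11777170 in Stx3-203 and of 81 bases at chr19:11781600-11781680 in Stx3-202, which encode the carboxyl-terminal end, where syntaxins have their membrane anchor.
Stx3-203, last coding exon: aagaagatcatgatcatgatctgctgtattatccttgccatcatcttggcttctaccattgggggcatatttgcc
Stx3-202, last coding exon: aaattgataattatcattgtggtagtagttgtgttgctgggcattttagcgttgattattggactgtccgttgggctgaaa
The annotation gives proteins of 287 residues for Stx3-203 and 289 for Stx3-202. In RWB, Stx3-203 held 65.5 and 58.5% at D18, 85.1, 76.8 and 72.4% at D22 and 88.9, 78.4 and 78.4% at D25 of the gene's counts. SSCd libraries gave Stx3-203 shares of 62.3, 60.5 and 51.9% at D18, 81.1, 66.3 and 62.8% at D22 and 78.5, 75.7 and 81.2% at D28. SSCi libraries gave Stx3-203 shares of 45.4 and 44.9% at D18, 65.3 and 63.9% at D25 and 80.0, 78.3 and 75.8% at D32. Every last-day share lay above every D18 share of its culture. Stx3-202 had the mirror pattern, with group means going from 29.4% to 11.3% in RWB, from 32.6% to 14.6% in SSCd and from 46.2% to 14.8% in SSCi. Shares of this kind come from the estimated assignment of reads to transcripts, and with groups of 2 or 3 they are given as a description with no test.

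Of the 6 calcium sensors and complexins, 2 rose over the whole course in RWB, 3 in SSCd and 4 in SSCi, and none fell. Syt1, the fast calcium sensor of release, rose in each. Syt1 in RWB measured 143 and 149 CPM at D18, 430.3, 382 and 381 CPM at D22 and 623, 557 and 645 CPM at D25. Syt1 in SSCd measured 118, 148 and 139 CPM at D18, 393, 324 and 345 CPM at D22 and 635, 610.5 and 896 CPM at D28. Syt1 in SSCi measured 131 and 106 CPM at D18, 445 and 396 CPM at D25 and 889, 879 and 813 CPM at D32. At SSCd D28 replicate 3 stood above the other libraries of its day. The days did not overlap between D18 and the end, and the changes of Syt1 were 2.06 ± 0.19 (SE, adjusted p = 2.8e-07) in RWB, 2.40 ± 0.17 (SE, adjusted p = 5.57e-09) in SSCd and 2.86 ± 0.20 (SE, adjusted p = 7.5e-09) in SSCi.

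Cplx2 (plus strand of chr13:54371349-54383917) encodes complexin 2, which clamps and then promotes fusion of the assembled SNARE complex. RWB levels of Cplx2 were 530.4 and 400.3 CPM at D18, 972, 783 and 709 CPM at D22 and 997, 896 and 1089.9 CPM at D25. SSCd levels of Cplx2 were 317, 392 and 416 CPM at D18, 514, 469 and 377 CPM at D22 and 570.4, 333 and 432 CPM at D28. SSCi levels of Cplx2 were 161 and 276 CPM at D18, 711 and 783 CPM at D25 and 479, 419 and 407 CPM at D32. It rose in RWB by 1.10 ± 0.25 (SE, adjusted p = 0.00261) and in SSCi by 0.99 ± 0.25 (SE, adjusted p = 0.00415), while in SSCd, where D18 and D28 libraries overlapped, the difference was 0.25 ± 0.22 (SE, adjusted p = 0.409). In SSCi its highest values were at D25, and from D25 to D32 the log2 difference was -0.78 ± 0.24 (SE, adjusted p = 0.0516), which did not pass the test. The RWB call was lost without RWB D18 replicate 2 and the SSCi call without SSCi D18 replicate 1.

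At D22 Cplx2 was the only 1 of the 34 genes called higher in RWB than in SSCd, by 0.86 ± 0.22 (SE, adjusted p = 0.0494), where 0.405% of all genes were called higher in RWB. The 3 RWB libraries at D22 lay above the 3 SSCd libraries. The call held without RWB D22 replicate 3 and was lost on leaving out any other of the 6 libraries, with no filter on low counts, without the 4 libraries of highest mitochondrial share and in the fit of these 2 groups alone.

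Cplx1, the complexin 1 gene, is the close relative of Cplx2. RWB had Cplx1 at 12.8 and 16.5 CPM at D18, 25.4, 23.9 and 30.0 CPM at D22 and 22.1, 23.9 and 31.6 CPM at D25. SSCd had Cplx1 at 9.11, 14.4 and 15.9 CPM at D18, 25.3, 20.6 and 29 CPM at D22 and 28.1, 26.8 and 60.8 CPM at D28. SSCi had Cplx1 at 8.03 and 10.1 CPM at D18, 22.2 and 29.5 CPM at D25 and 27.6, 30.3 and 21.7 CPM at D32. It rose in SSCd by 1.54 ± 0.29 (SE, adjusted p = 0.000313) and in SSCi by 1.56 ± 0.33 (SE, adjusted p = 0.00107), and the RWB difference of 0.82 ± 0.32 (SE, adjusted p = 0.0654) did not pass the test. Syt4, a synaptotagmin found on dense-core vesicles, had a log2 difference of 0.68 ± 0.26 (SE, adjusted p = 0.0545) in RWB and rose by 0.64 ± 0.23 (SE, adjusted p = 0.0335) in SSCd and 1.17 ± 0.26 (SE, adjusted p = 0.00161) in SSCi. The SSCd call of Syt4 was lost without any 1 of the 3 D18 libraries or without D28 replicate 2, and in the fit of SSCd D18 and D28 alone. Syt2, a relative of Syt1, stayed between 1.07 and 10.0 CPM, and Syt11, a synaptotagmin that lacks calcium binding, did not pass the test in any comparison.

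Genes of the vesicle membrane and coat rose for the most part, with the transporter gene Slc17a6 and the synaptophysin-like gene Sypl going the other way. Of these 9 genes, 5 rose and 2 fell in RWB, 6 rose in SSCd, and 6 rose and 1 fell in SSCi. Sv2a encodes a glycoprotein of the vesicle membrane. RWB libraries had Sv2a at 32.5 and 32 CPM at D18, 177, 228 and 237 CPM at D22 and 215, 285 and 394 CPM at D25. SSCd libraries had Sv2a at 39.4, 45.8 and 62.6 CPM at D18, 159.9, 161 and 220.4 CPM at D22 and 281, 259 and 485 CPM at D28. SSCi libraries had Sv2a at 36.4 and 43 CPM at D18, 219.7 and 233 CPM at D25 and 289.9, 341 and 292 CPM at D32. The libraries of the middle day all lay above those of D18, and the change over the whole course came to 3.21 ± 0.31 (SE, adjusted p = 4.47e-07) in RWB, 2.79 ± 0.26 (SE, adjusted p = 1.1e-07) in SSCd and 2.95 ± 0.31 (SE, adjusted p = 4.28e-07) in SSCi.

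Syp (plus strand of chrX:7638471-7653256) encodes synaptophysin, an abundant membrane protein of vesicles. Syp read 245 and 185 CPM at D18, 812, 596 and 581 CPM at D22 and 1408, 835 and 1064 CPM at D25 in RWB. It read 189, 178 and 218 CPM at D18, 623, 407 and 353 CPM at D22 and 969, 656 and 646 CPM at D28 in SSCd, with Syp highest in replicate 1 at the middle and last days. Intact cultures read 81.5 and 125 CPM at D18, 564 and 598 CPM at D25 and 941, 798 and 859 CPM at D32 for Syp. No D18 library reached a last-day library, and the changes were 2.36 ± 0.30 (SE, adjusted p = 6.93e-06) in RWB, 1.96 ± 0.25 (SE, adjusted p = 5.48e-06) in SSCd and 3.07 ± 0.31 (SE, adjusted p = 3.19e-07) in SSCi. Sv2b, the isoform of Sv2 found at photoreceptor terminals, rose by 2.07 ± 0.41 (SE, adjusted p = 0.000646), 1.94 ± 0.35 (SE, adjusted p = 0.000209) and 2.90 ± 0.42 (SE, adjusted p = 2.35e-05) in the same order.

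Syn1 (minus strand of chrX:20860511-20921004) encodes synapsin 1, which tethers vesicles in the reserve pool of conventional terminals. RWB values for Syn1 were 15.8 and 17.7 CPM at D18, 42, 43.4 and 54.5 CPM at D22 and 37.4, 41.5 and 80.1 CPM at D25. SSCd values for Syn1 were 9.33, 13 and 14.8 CPM at D18, 17.4, 25 and 50.3 CPM at D22 and 31.1, 39.2 and 89.3 CPM at D28. SSCi values for Syn1 were 8.96 and 11.2 CPM at D18, 46.3 and 49.3 CPM at D25 and 48.6, 55.2 and 37.3 CPM at D32. Replicate 3 was the highest of its day in RWB at D22 and D25 and in SSCd at D18, D22 and D28, and the whole-course changes were 1.66 ± 0.45 (SE, adjusted p = 0.00849) in RWB, 2.10 ± 0.40 (SE, adjusted p = 0.000347) in SSCd and 2.22 ± 0.46 (SE, adjusted p = 0.000852) in SSCi. The RWB call of Syn1 was lost on leaving out either D18 library. Syn2 rose in all 3 cultures from levels near the detection limit (0.246 and 2.02 CPM at RWB D18), a call that in RWB was lost without D18 replicate 2. Syn3 rose by 1.12 ± 0.40 (SE, adjusted p = 0.0351) in SSCd and 1.50 ± 0.47 (SE, adjusted p = 0.0156) in SSCi, and its RWB difference of 0.87 ± 0.46 (SE, adjusted p = 0.169) did not pass. The SSCd call of Syn3 was lost without D18 replicate 1, D18 replicate 2 or D28 replicate 3, and the SSCi call without D18 replicate 1.

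Sypl (plus strand of chr12:32953891-32979860) encodes a synaptophysin relative that is also present outside neurons. RWB libraries measured Sypl at 52.4 and 56.4 CPM at D18, 32.9, 32.1 and 23.5 CPM at D22 and 32.7, 31.5 and 24.8 CPM at D25. SSCd libraries measured Sypl at 47.1, 40.9 and 34.6 CPM at D18, 28.5, 27.9 and 23.9 CPM at D22 and 30.9, 30.1 and 28.8 CPM at D28. SSCi libraries measured Sypl at 62.7 and 43.8 CPM at D18, 32.9 and 27.9 CPM at D25 and 27.9, 32.3 and 26.7 CPM at D32. It fell in RWB, with a log2 change of -0.88 ± 0.20 (SE, adjusted p = 0.00197), and in SSCi, with -0.88 ± 0.19 (SE, adjusted p = 0.00139), in both cases without overlap between D18 and the last day. The SSCd difference of -0.45 ± 0.18 (SE, adjusted p = 0.0555) did not pass the test, although the groups did not overlap, and the SSCi call was lost without SSCi D18 replicate 1. Slc17a6 encodes the vesicular glutamate transporter VGLUT2, which in the retina is a transporter of ganglion cells. RWB libraries measured Slc17a6 at 10.8 and 16.7 CPM at D18, 6.0, 4.24 and 6.52 CPM at D22 and 5.18, 4.22 and 0.691 CPM at D25. SSCd libraries measured Slc17a6 at 13.6, 10.7 and 6.15 CPM at D18, 4.05, 6.61 and 6.21 CPM at D22 and 5.05, 8.41 and 1.49 CPM at D28. SSCi libraries measured Slc17a6 at 4.60 and 7.21 CPM at D18, 3.17 and 2.87 CPM at D25 and 2.0, 4.77 and 5.44 CPM at D32. It fell in RWB, with a log2 change of -2.04 ± 0.63 (SE, adjusted p = 0.0188), a call lost without D18 replicate 2 or D25 replicate 3. Its differences of -1.01 ± 0.57 (SE, adjusted p = 0.18) in SSCd and -0.54 ± 0.63 (SE, adjusted p = 0.544) in SSCi did not pass, and the ganglion cell marker sums that went down beside it are given above.

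Of the 7 genes of docking, priming and the active zone, 6 rose in RWB, 4 in SSCd and 6 in SSCi. Rims1 (minus strand of chr1:22286251-22805994) encodes a scaffold of the active zone that binds Rab3 on the vesicle and recruits calcium channels. RWB counted Rims1 at 7.11 and 4.49 CPM at D18, 96.7, 43.5 and 71.8 CPM at D22 and 96.1, 56.6 and 84.7 CPM at D25. SSCd counted Rims1 at 5.73, 4.50 and 4.04 CPM at D18, 67.4, 43.4 and 48.4 CPM at D22 and 60.0, 84.2 and 99 CPM at D28. SSCi counted Rims1 at 1.64 and 2.36 CPM at D18, 58.9 and 48.6 CPM at D25 and 13.5, 21.7 and 16 CPM at D32. It rose between D18 and the middle day, by 3.61 ± 0.38 (SE, adjusted p = 1.1e-05) in RWB, 3.48 ± 0.33 (SE, adjusted p = 1.41e-06) in SSCd and 4.74 ± 0.43 (SE, adjusted p = 1.25e-06) in SSCi. After that the log2 difference of Rims1 was 0.16 ± 0.29 (SE, adjusted p = 0.823) in RWB and 0.61 ± 0.29 (SE, adjusted p = 0.219) in SSCd, and in SSCi Rims1 fell, with a log2 change of -1.66 ± 0.32 (SE, adjusted p = 0.00227), a call that held whichever of the 5 libraries was left out. Whether that fall differed from the RWB and SSCd courses was not tested, since the days differ.

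Rab3a encodes the small GTPase through which vesicles bind Rims. RWB recorded Rab3a at 25.6 and 22.1 CPM at D18, 114, 74.9 and 80.2 CPM at D22 and 121, 85.2 and 146 CPM at D25. SSCd recorded Rab3a at 19.6, 31.9 and 39.2 CPM at D18, 97.8, 61.5 and 96.2 CPM at D22 and 114, 77.9 and 119 CPM at D28. SSCi recorded Rab3a at 20.2 and 23 CPM at D18, 66.5 and 103 CPM at D25 and 102, 91.1 and 75.3 CPM at D32. The libraries of D18 lay below all later ones in each culture, and Rab3a rose by 2.30 ± 0.33 (SE, adjusted p = 2.62e-05), 1.77 ± 0.28 (SE, adjusted p = 4.77e-05) and 2.05 ± 0.33 (SE, adjusted p = 5.48e-05) in RWB, SSCd and SSCi. Rab3c, a further Rab3, rose by 1.30 ± 0.31 (SE, adjusted p = 0.00334), 1.18 ± 0.27 (SE, adjusted p = 0.00184) and 1.70 ± 0.31 (SE, adjusted p = 0.000262). Rph3a, the Rab3 effector rabphilin, rose in RWB by 1.38 ± 0.43 (SE, adjusted p = 0.0212) and in SSCi by 1.68 ± 0.44 (SE, adjusted p = 0.00519). In SSCd its log2 difference was 0.78 ± 0.37 (SE, adjusted p = 0.114). Erc2, which encodes the active zone protein CAST, rose in RWB by 0.66 ± 0.24 (SE, adjusted p = 0.049) and in SSCi by 1.16 ± 0.25 (SE, adjusted p = 0.00104), with a difference of 0.15 ± 0.21 (SE, adjusted p = 0.618) in SSCd. In RWB the Rph3a call was lost without D18 replicate 1, D18 replicate 2 or D25 replicate 3, and the Erc2 call without either D18 library or without D25 replicate 1 or 3. In SSCi the Rph3a call was lost without D18 replicate 1.

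Unc13b (plus strand of chr4:43058953-43264871) encodes Munc13-2, a priming factor that opens syntaxin for SNARE assembly. RWB showed Unc13b at 131 and 229 CPM at D18, 215, 199 and 234 CPM at D22 and 219, 507 and 459 CPM at D25. SSCd showed Unc13b at 173, 178 and 228 CPM at D18, 256, 258 and 256 CPM at D22 and 518, 629 and 382 CPM at D28. SSCi showed Unc13b at 142 and 168 CPM at D18, 409 and 323 CPM at D25 and 518, 527 and 572 CPM at D32. It rose by 1.14 ± 0.29 (SE, adjusted p = 0.00624) in RWB, where D25 replicate 1 lay between the D18 libraries and the call was lost without D18 replicate 1. In SSCd and SSCi the groups did not overlap, with rises of 1.40 ± 0.26 (SE, adjusted p = 0.000279) and 1.80 ± 0.30 (SE, adjusted p = 0.000109). The related gene Unc13a, Munc13-1, did not pass the test in any comparison.

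The transcript makeup of Unc13b differed between days as well. Unc13b-215 is annotated with 13170 coding bases (4390 residues), and Unc13b-201 with 4770 coding bases (1590 residues). The coding exons that Unc13b-215 holds and Unc13b-201 lacks are of 33 bases at chr4:43166668-43166700 and of 8367 bases at chr4:43169968-43178334, and their sequence is not printed because of the length of the latter. RWB gave Unc13b-215 shares of 17.6 and 19.8% at D18, 49.2, 39.9 and 43.6% at D22 and 62.8, 55.8 and 46.6% at D25. SSCd gave Unc13b-215 shares of 40.9, 28.5 and 32.3% at D18, 61.5, 55.0 and 54.7% at D22 and 62.6, 61.0 and 54.0% at D28. SSCi gave Unc13b-215 shares of 33.6 and 24.6% at D18, 62.7 and 51.9% at D25 and 59.4, 63.0 and 62.3% at D32. The long transcript took the larger share at the last day in every culture without overlap with D18, while mean shares of Unc13b-201 went from 61.5% to 21.3% in RWB, from 44.1% to 17.4% in SSCd and from 50.2% to 17.1% in SSCi. These are shares of counts that were not divided by transcript length, so they are not shares of molecules. Unc13b-215 is 14754 bases long and Unc13b-201 is 6354 bases long.

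All 4 genes of SNARE recycling and chaperones rose in all 3 cultures. Sncb (minus strand of chr13:54758860-54766595) encodes beta-synuclein, a presynaptic relative of the SNARE chaperone alpha-synuclein. RWB libraries carried Sncb at 10.1 and 7.97 CPM at D18, 56.9, 45 and 65.8 CPM at D22 and 96, 108 and 160.4 CPM at D25. SSCd libraries carried Sncb at 11.3, 17.5 and 20.5 CPM at D18, 87.2, 66 and 84.7 CPM at D22 and 197, 180.3 and 294 CPM at D28. SSCi libraries carried Sncb at 13.2 and 17.4 CPM at D18, 53.5 and 62 CPM at D25 and 199.7, 193 and 156 CPM at D32. Each day lay above the day before in every library of all 3 cultures, and over the whole course Sncb rose by 3.75 ± 0.32 (SE, adjusted p = 1.21e-07) in RWB, 3.76 ± 0.27 (SE, adjusted p = 7.63e-09) in SSCd and 3.58 ± 0.32 (SE, adjusted p = 6.8e-08) in SSCi.

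Napb encodes beta-SNAP, the adaptor through which the ATPase NSF takes spent SNARE complexes apart. RWB levels for Napb were 46.8 and 56.2 CPM at D18, 174, 111 and 142 CPM at D22 and 306, 233 and 260.2 CPM at D25. SSCd levels for Napb were 67.4, 50.9 and 62.2 CPM at D18, 172, 121 and 144 CPM at D22 and 227, 261 and 338 CPM at D28. SSCi levels for Napb were 41.7 and 37.7 CPM at D18, 155 and 123 CPM at D25 and 282, 334 and 299 CPM at D32. The days again did not overlap, and Napb rose by 2.37 ± 0.24 (SE, adjusted p = 5.49e-07), 2.20 ± 0.20 (SE, adjusted p = 9.39e-08) and 2.94 ± 0.24 (SE, adjusted p = 3.56e-08). Nsf, the gene of the ATPase, stood in RWB at 68.6 and 68.8 CPM at D18, 182, 136 and 142 CPM at D22 and 369, 243 and 293 CPM at D25. In SSCd Nsf stood at 49.4, 49 and 62.7 CPM at D18, 156, 118 and 112 CPM at D22 and 263, 231 and 264 CPM at D28. In SSCi Nsf stood at 47 and 50.5 CPM at D18, 135 and 113 CPM at D25 and 266, 251 and 253 CPM at D32. It rose by 2.13 ± 0.21 (SE, adjusted p = 4.32e-07), 2.24 ± 0.18 (SE, adjusted p = 2.4e-08) and 2.40 ± 0.21 (SE, adjusted p = 5.8e-08). Dnajc5, which encodes the vesicle chaperone cysteine string protein, rose less, by 0.99 ± 0.17 (SE, adjusted p = 0.000158), 1.29 ± 0.15 (SE, adjusted p = 1.28e-06) and 1.31 ± 0.17 (SE, adjusted p = 5.77e-06).

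The 3 endocytosis genes rose in all 3 cultures. Amph encodes amphiphysin, which brings dynamin to the neck of the forming vesicle. Amph in bioreactor cultures was 36.2 and 36.3 CPM at D18, 109, 95.8 and 101 CPM at D22 and 207, 197 and 190.4 CPM at D25. Amph in SSCd cultures was 34, 36.1 and 42.9 CPM at D18, 84.1, 74.5 and 99.9 CPM at D22 and 195, 202 and 229 CPM at D28. Amph in SSCi cultures was 30.8 and 30.8 CPM at D18, 79.6 and 79.3 CPM at D25 and 219, 192 and 224 CPM at D32. Replicates were close, and the changes of 2.45 ± 0.16 (SE, adjusted p = 1.02e-08) in RWB, 2.47 ± 0.14 (SE, adjusted p = 6.17e-10) in SSCd and 2.78 ± 0.16 (SE, adjusted p = 2.08e-09) in SSCi had the smallest adjusted p of the 34 genes in each culture.

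Dnm1 encodes dynamin 1, the GTPase that severs the vesicle neck. RWB readings of Dnm1 were 55 and 36.7 CPM at D18, 107, 108 and 127 CPM at D22 and 94.1, 178 and 263 CPM at D25. SSCd readings of Dnm1 were 29.2, 58.1 and 82.7 CPM at D18, 95.6, 103 and 151 CPM at D22 and 217, 204 and 299.8 CPM at D28. SSCi readings of Dnm1 were 43.3 and 52.9 CPM at D18, 144 and 193 CPM at D25 and 264, 245 and 221 CPM at D32. It rose by 1.96 ± 0.40 (SE, adjusted p = 0.000884), 2.08 ± 0.34 (SE, adjusted p = 8.69e-05) and 2.34 ± 0.41 (SE, adjusted p = 0.000141), with RWB replicates more spread at D25 than at D22. Bin1, amphiphysin 2, shares the membrane-bending domain of amphiphysin. RWB readings of Bin1 were 203 and 140.0 CPM at D18, 323, 410.0 and 326 CPM at D22 and 369, 565 and 498 CPM at D25. SSCd readings of Bin1 were 159, 198 and 258 CPM at D18, 333, 365 and 335 CPM at D22 and 550.2, 420.4 and 306 CPM at D28. SSCi readings of Bin1 were 117 and 176 CPM at D18, 339 and 411 CPM at D25 and 454, 348 and 399 CPM at D32. Its rises were 1.48 ± 0.28 (SE, adjusted p = 0.000411), 1.05 ± 0.24 (SE, adjusted p = 0.0017) and 1.45 ± 0.28 (SE, adjusted p = 0.000341), the smallest of the 3 endocytosis genes. Bin1-201, annotated with 588 residues, took mean shares of 79.2% at RWB D18 and 88.5% at D25, of 76.7% at SSCd D18 and 89.6% at D28, and of 64.8% at SSCi D18 and 91.3% at D32. Bin1-202, with 477 residues, lacks 4 coding exons of 93, 108, 24 and 108 bases and made up the rest.

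**Figure D2:**
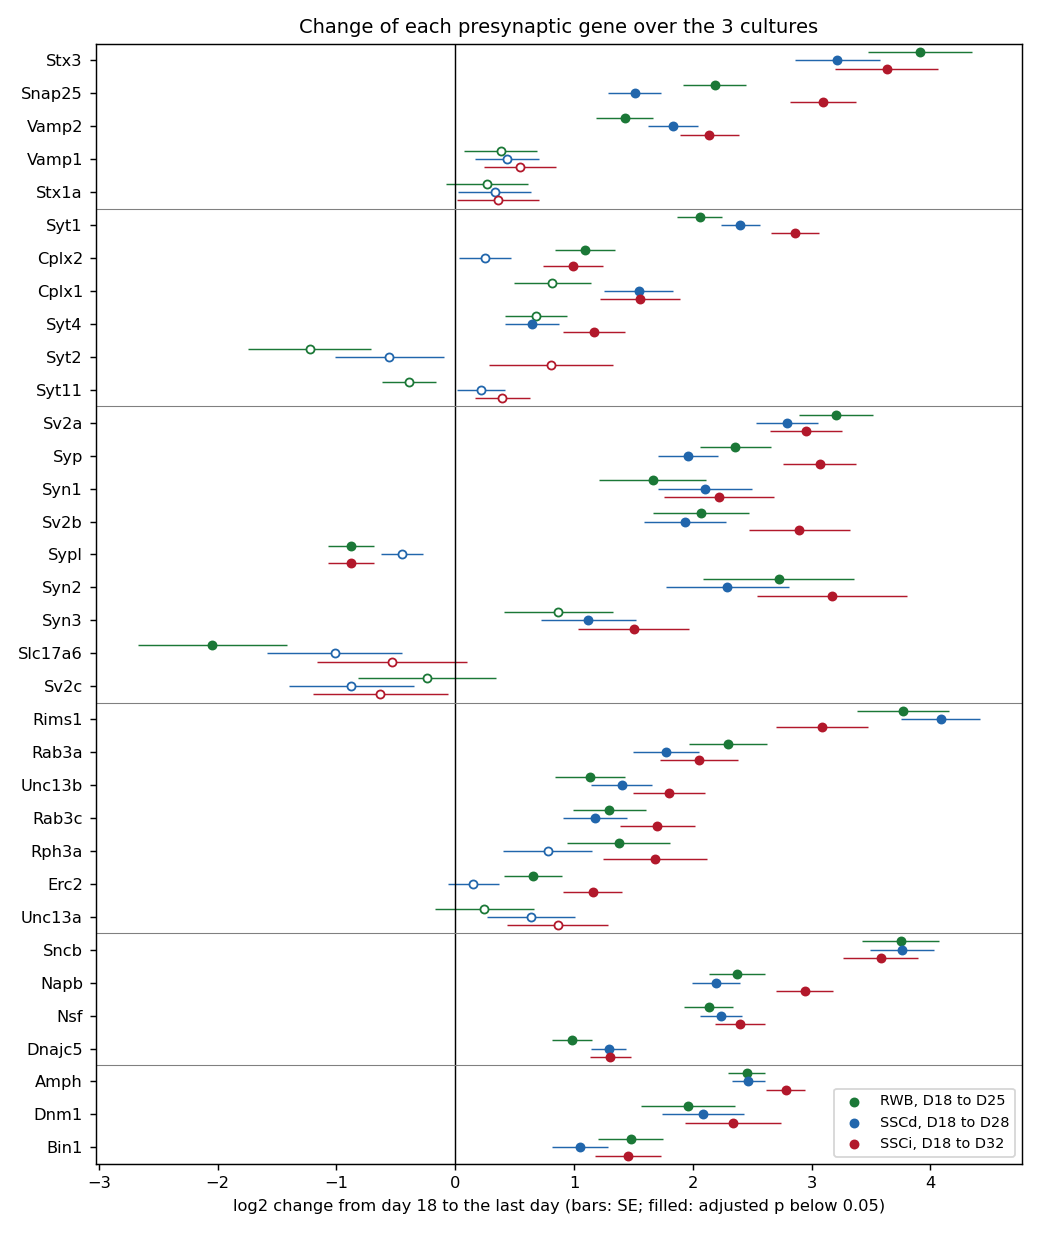
Log2 change of each presynaptic gene from D18 to the last day (x axis) in RWB (D25), SSCd (D28) and SSCi (D32), with bars of 1 SE, filled points where the adjusted p is under 0.05 and open points otherwise. Stx3, Sncb and Rims1 lie above 3 in all 3 cultures, and Sypl and Slc17a6 lie below 0.

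Shares of transcripts were compared in the same way over all members. Of 195 annotated transcripts of the 34 genes, 45 held a mean share of at least 15% in a gene of at least 20 CPM, and 19 of these, in 13 genes, had last-day shares that did not overlap D18 in the same direction in at least 2 cultures. Over all genes 18.3% of the 13381 transcripts meeting the same minimum did so. Stx1a, whose summed level did not pass the test, was among them: Stx1a-201 went from a mean share of 40.6% to 73.0% in RWB, from 40.2% to 80.7% in SSCd and from 46.5% to 70.8% in SSCi. Stx1a-204, annotated as a target of nonsense-mediated decay, went from 38.1% to 18.6%, from 42.3% to 9.6% and from 37.5% to 17.4%. For Rims1, Rims1-207, a short transcript of 219 residues, went from 36.0% to 61.3%, from 34.4% to 63.1% and from 6.9% to 46.3%, and Rims1-204, of 1396 residues, from 26.4% to 1.4%, from 40.5% to 0.8% and from 70.0% to 11.5%. The D18 shares of Rims1 rest on gene levels of 1.64 to 7.11 CPM, and the Rims1-204 shares at RWB D18 and D25 overlapped. Counts were not divided by transcript length for these shares either, and Rims1-207 is 2294 bases long and Rims1-204 6362 bases long. On the minus strand of chr1, Rims1-207 starts at 22315805 and Rims1-204 at 22805724, so the short transcript covers only the last part of the gene.

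**Figure D3:**
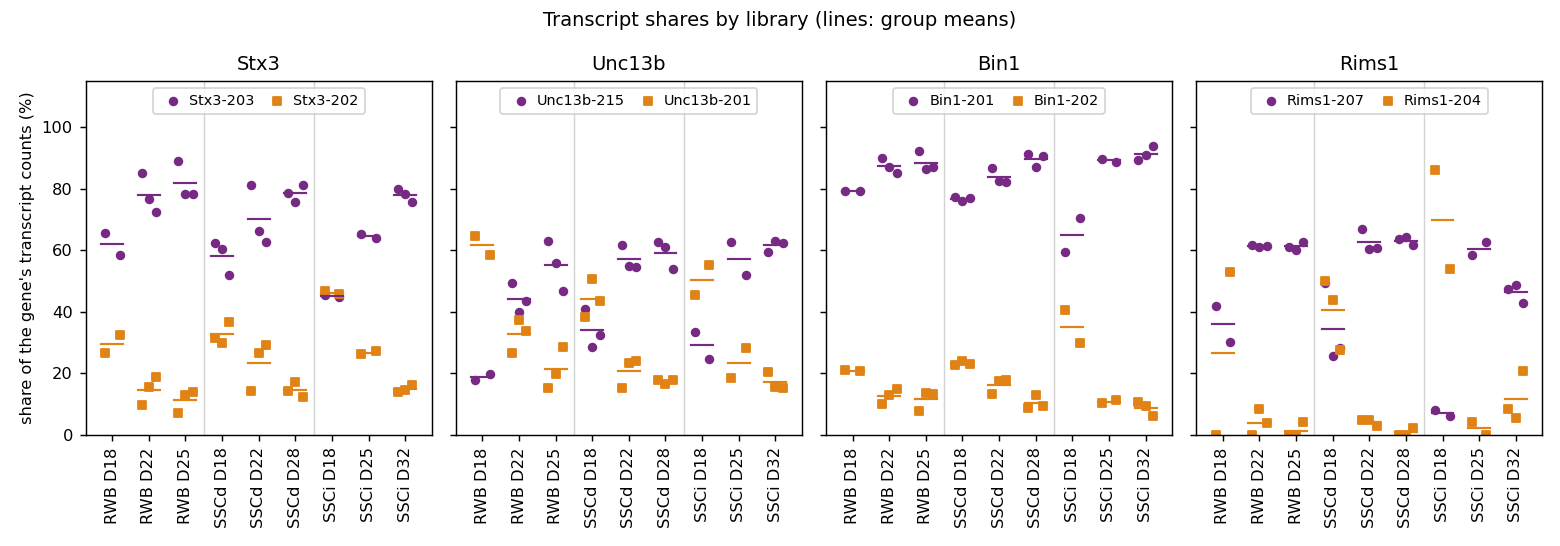
Share of the gene's transcript counts (percent, y axis) held by named transcripts of Stx3, Unc13b, Bin1 and Rims1, 1 point per library, by culture and day (x axis), with short lines at the group means. The shares of Stx3-203, Unc13b-215, Bin1-201 and Rims1-207 are higher on the last day than at D18 in each culture.

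The whole courses were also split into 2 steps at the middle day. From D18 to D22, 20 rose and 1 fell in RWB (6.01% and 4.88% of all genes), and 18 rose and 1 fell in SSCd (7.23% and 5.13%). From D18 to D25 in SSCi, 25 rose and 1 fell (8.89% and 10.9%). The gene that fell was Sypl each time, with log2 changes of -0.88 ± 0.20 (SE, adjusted p = 0.00587), -0.61 ± 0.18 (SE, adjusted p = 0.0277) and -0.81 ± 0.22 (SE, adjusted p = 0.0121). The Sypl call was lost without RWB D18 replicate 2 in RWB, without SSCi D18 replicate 1 or D25 replicate 2 in SSCi, and in SSCd on leaving out any library but D18 replicate 3. In the fit of the compared groups alone it was lost in SSCd and SSCi, and in SSCd also with no filter on low counts and without the 4 libraries of highest mitochondrial share. The RWB count was 10 without D18 replicate 2 and 14 without D18 replicate 1, both directions together. The median log2 change of the 34 genes was 1.05 in RWB, 0.82 in SSCd and 1.53 in SSCi in this step.

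In the later step the medians were 0.41 in RWB, 0.59 in SSCd and 0.32 in SSCi. From D22 to D25 in RWB 6 rose and none fell (1.97% and 3.23% of all genes), and with the replicate number as a block 10 were called. From D22 to D28 in SSCd 9 rose and none fell (3.00% and 5.05%), and 14 were called with the block. Without the 4 libraries of highest mitochondrial share, 14 were called in either step of SSCd. From D25 to D32 in SSCi 6 rose and 1 fell (3.72% and 4.54%), while the fit of these 2 groups alone called 18 (14 higher, 4 lower), against 21 in the earlier step. Amph, Napb, Nsf, Sncb and Syt1 were called higher in all 3 later steps. Amph rose in them by 0.96 ± 0.13 (SE, adjusted p = 0.000246) in RWB, 1.28 ± 0.13 (SE, adjusted p = 1.12e-05) in SSCd and 1.42 ± 0.15 (SE, adjusted p = 1.53e-05) in SSCi. Nsf rose by 0.98 ± 0.17 (SE, adjusted p = 0.00169), 0.98 ± 0.17 (SE, adjusted p = 0.0013) and 1.05 ± 0.20 (SE, adjusted p = 0.00162). Sncb rose by 1.12 ± 0.24 (SE, adjusted p = 0.0091), 1.50 ± 0.24 (SE, adjusted p = 0.000753) and 1.66 ± 0.29 (SE, adjusted p = 0.000894). Of the genes called in all 3 later steps, Napb, Nsf and Sncb belong to SNARE recycling and chaperones, Amph to endocytosis and Syt1 to the calcium sensors. The other endocytosis genes, Dnm1 and Bin1, were called in no later step, and the chaperone gene Dnajc5 only in that of SSCd. The active zone gene Rims1 rose in the earlier step of each culture and did not pass the test as higher in any later step. The sixth in RWB was Snap25 (0.79 ± 0.22 (SE, adjusted p = 0.0397)) and in SSCi Stx3 (1.30 ± 0.38 (SE, adjusted p = 0.0416)). In SSCd the others were Dnajc5, Vamp2, Unc13b and Sv2a, by 0.57 ± 0.15 (SE, adjusted p = 0.0184), 0.83 ± 0.21 (SE, adjusted p = 0.0156), 0.99 ± 0.26 (SE, adjusted p = 0.0198) and 0.92 ± 0.24 (SE, adjusted p = 0.0224). In the fit of RWB D22 and D25 alone none of the 6 RWB calls was made, and in that of SSCd D22 and D28 alone those of Napb, Dnajc5, Vamp2 and Sv2a were lost. Leaving out single libraries, Amph and Nsf kept the RWB call whichever was left out, Amph, Napb, Nsf, Sncb and Syt1 the SSCd call, and Amph, Sncb and Syt1 the SSCi call, while 2 members were called in RWB without D22 replicate 2, 5 in SSCd without D22 replicate 2 and 4 in SSCi without D25 replicate 2. In SSCi the Stx3 call was lost without any 1 of the 5 libraries.

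**Figure D4:**
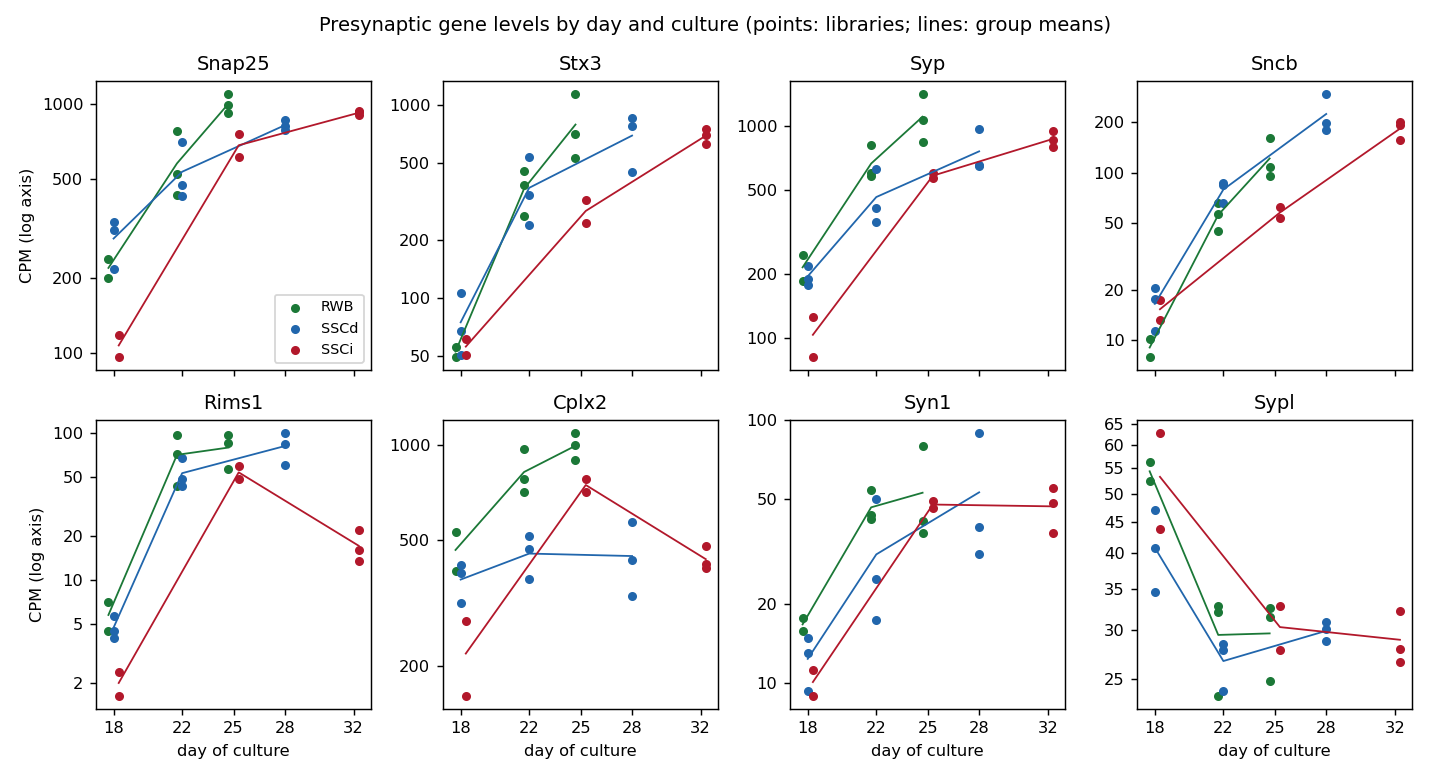
CPM on a log axis (y axis) of 8 presynaptic genes against day of culture (x axis) in RWB, SSCd and SSCi, 1 point per library, with lines through the group means and the cultures set slightly apart along the x axis. Rims1 rises by the middle day and is lower at SSCi D32 than at D25, Sncb goes on rising to the last day, and Sypl falls by the middle day.

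Between cultures on the same day few members differed. At D18 none of the 34 differed between RWB and SSCd by edgeR or by DESeq2, where 0.488% of all genes did, and 4 had an unadjusted p under 0.05. The median log2 difference of RWB over SSCd was -0.13 at D18 and 0.13 at D22. The test of whether the D18 to D22 change differed between RWB and SSCd called none of the 34 genes and 0.00% of all genes, by DESeq2 also none of the 34, and the only member with an unadjusted p under 0.05 was Sv2a, with a log2 difference of 0.86.

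At D25, 6 genes were higher in RWB than in SSCi, where 3.60% of all genes were called higher: Stx3, Syp, Napb, Nsf, Sncb and Amph. None of the 34 was called lower, but the share of all genes called lower is not given here, so that absence is not read further. The comparison sets dissected cups in the bioreactor against intact organoids under static conditions, and the RWB medium had held serum and B27 since D18, so format and medium cannot be told apart. Amph was at 207, 197 and 190.4 CPM in RWB and 79.6 and 79.3 CPM in SSCi, a difference of 1.32 ± 0.15 (SE, adjusted p = 4.14e-05). Nsf was at 369, 243 and 293 CPM against 135 and 113 CPM, a difference of 1.28 ± 0.20 (SE, adjusted p = 0.00053). Neither pair of groups overlapped, and both calls held whichever library was left out, but in the fit of these 2 groups alone none of the 6 calls was made. The differences of the other 4 were 1.49 ± 0.39 (SE, adjusted p = 0.0228) for Stx3, 0.92 ± 0.28 (SE, adjusted p = 0.0448) for Syp, 0.94 ± 0.22 (SE, adjusted p = 0.012) for Napb and 1.07 ± 0.28 (SE, adjusted p = 0.0221) for Sncb. The Stx3 and Syp calls were lost without RWB D25 replicate 1 or without either SSCi library, the Sncb call without RWB D25 replicate 3 or either SSCi library, and the Napb call without SSCi D25 replicate 2. Counted over the 34, 2 were called without SSCi D25 replicate 2, 3 without SSCi D25 replicate 1 and 4 without RWB D25 replicate 1, the RWB library with 1100 CPM of pigment epithelium markers. The photoreceptor marker sum was 4750 to 5580 CPM in RWB and 4920 to 5070 CPM in SSCi at this day, and the progenitor sum 217 to 343 CPM and 962 to 1030 CPM. The part of these marker sums in the differences was not tested. Of the pigment epithelium sum of RWB D25 replicate 1, Ttr held 970 CPM, so that sum rests mostly on Ttr. In that library Rpe65, Best1 and Mitf were at 0.186, 0.0792 and 5.93 CPM, and Pmel and Tyr at 13.6 and 13.8 CPM.

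Levels were also compared between genes, per kilobase of transcript. Snap25 had the highest mean of the 34 genes in all 9 groups, going from 122 to 561 CPM per kb in RWB, from 160 to 459 CPM per kb in SSCd and from 59.4 to 512 CPM per kb in SSCi. At RWB D25 it was followed by Syp at 479 ± 118 (SD, n = 3) and Stx3 at 350.0 ± 134 CPM per kb, which overlap within 1 SD, then Cplx2 at 189 ± 18.6 and Bin1 at 189 ± 45.4 CPM per kb, which do not differ beyond their spread. The first place of Snap25 lay within the spread at RWB D22, where it was 316 ± 95.1 (SD, n = 3) against 283 ± 51.0 CPM per kb for Syp, at RWB D25, where its SD was 44.1, and at SSCi D18, where it was 59.4 ± 8.02 (SD, n = 2) against 56.7 ± 17.5 for Bin1 and 54.5 ± 1.44 CPM per kb for Vamp2. At SSCd D22 the values of Snap25 and Syp, 293 ± 79.1 and 197 ± 58.8 CPM per kb, also overlapped within 1 SD, as did those at RWB D18. Stx3 was at rank 11 at RWB D18, 9 at SSCd D18 and 10 at SSCi D18, and at rank 3 on the last day of all 3 cultures. Rims1 was at rank 31, 32 and 33 at D18 and at rank 20, 20 and 29 on the last day, so that its large rise started from the low end of the order. The lowest on the last days were Syn2, Syn3, Syt2, Sv2c and Slc17a6, each under 6 CPM per kb.

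Other genes of the presynapse were counted beside the 34. Of 50 tested presynaptic genes outside the 34, 28 rose and 4 fell in RWB, 31 rose and 4 fell in SSCd and 33 rose and 4 fell in SSCi, with median log2 changes of 0.94, 1.15 and 1.50. Of all genes tested, 14.9% rose and 14.0% fell in RWB, 17.5% and 17.1% in SSCd, and 16.2% and 20.5% in SSCi. Dnm3, a further dynamin, rose by 3.04 ± 0.20 (SE, adjusted p = 1.39e-08), 3.15 ± 0.17 (SE, adjusted p = 6.17e-10) and 3.52 ± 0.21 (SE, adjusted p = 2.08e-09). Slc17a7, which encodes the glutamate transporter VGLUT1 of ribbon synapses, rose by 3.93 ± 0.44 (SE, adjusted p = 2.08e-06) in RWB and 3.96 ± 0.37 (SE, adjusted p = 1.27e-07) in SSCd. In SSCi, where its test is not given here, its mean level went from 28.1 CPM at D18 to 448 CPM at D32. Sncg, gamma-synuclein, a gene of ganglion cells, had log2 changes of -4.12 ± 0.56 (SE, adjusted p = 1.33e-05) in RWB and -3.12 ± 0.53 (SE, adjusted p = 0.000111) in SSCi, opposite to Sncb. The mean level of Sncg in SSCd, where its test is not given here, went from 29.1 CPM at D18 to 9.15 CPM at D28. Rims3, a short relative of Rims1, fell in all 3 cultures, by changes of -1.36 ± 0.25 (SE, adjusted p = 0.000311), -1.22 ± 0.23 (SE, adjusted p = 0.000279) and -1.10 ± 0.25 (SE, adjusted p = 0.00147).

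Among 24 tested paralogs that serve membrane fusion in most cell types, 6 rose and 2 fell in RWB, 3 rose and 2 fell in SSCd, and 2 rose and 3 fell in SSCi, with medians of 0.15, 0.01 and -0.26. The shares over all genes tested were 14.9% higher and 14.0% lower in RWB, 17.5% and 17.1% in SSCd, and 16.2% and 20.5% in SSCi. Stx2, a syntaxin of non-neuronal membranes, changed by -1.15 ± 0.29 (SE, adjusted p = 0.00537), -0.84 ± 0.27 (SE, adjusted p = 0.0183) and -0.87 ± 0.29 (SE, adjusted p = 0.0233), opposite to Stx3, and Syngr2, the broadly expressed synaptogyrin, by -1.36 ± 0.26 (SE, adjusted p = 0.000522), -0.95 ± 0.24 (SE, adjusted p = 0.00428) and -1.30 ± 0.26 (SE, adjusted p = 0.000617). Of 7 genes of the repressor complex that silences neuronal genes in other cells, 3 fell in RWB, 4 fell and 1 rose in SSCd, and 5 fell and 1 rose in SSCi. Rest, the DNA-binding subunit, had log2 changes of -1.35 ± 0.26 (SE, adjusted p = 0.000515), -0.96 ± 0.24 (SE, adjusted p = 0.00342) and -1.21 ± 0.26 (SE, adjusted p = 0.000975), and its corepressor Rcor2 changed by -1.70 ± 0.43 (SE, adjusted p = 0.00518), -1.90 ± 0.40 (SE, adjusted p = 0.00101) and -2.10 ± 0.43 (SE, adjusted p = 0.000724).

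The promoters of the 34 genes were searched for the RE1 element that Rest binds and for motifs of other factors, in RefSeq windows (GRCm38.p6) from 250 bases before to 50 bases after each start. In all, 28 members matched, with 39 windows. The RE1 element (both strands, up to 4 mismatches over 19 fixed bases that include its parts TTCAGCACC and GGACAG) was found in 2 of 39 windows (5.13%), against 0.201% of 32851 windows of all genes: in Syn1 at 232 to 212 bases before the start with 1 mismatch, and in Rph3a at 96 to 76 bases before the start with 3 mismatches. No other motif searched overlaps the RE1 letters. TAATCC, read by Crx-type homeodomain factors, was found on either strand in 4 windows (10.3% against 7.06%) of Stx3, Sv2b and Syp. GGGCGG, the GC box, was in 24 windows of 22 genes (61.5% against 35.7%), and TGACGTCA, the cyclic AMP response element, in 1, that of Syn1 (2.56% against 1.79%). The windows of Syn1 and Rph3a are shown because they hold the RE1 matches and that of Syp because it holds TAATCC, as GGATTA on the plus strand. Each is given upstream of the annotated transcribed bases only, 5′ to 3′, with matched letters in capitals, and the match in Rph3a is on the opposite strand.
Syn1, chrX:20921005-20921168, minus strand: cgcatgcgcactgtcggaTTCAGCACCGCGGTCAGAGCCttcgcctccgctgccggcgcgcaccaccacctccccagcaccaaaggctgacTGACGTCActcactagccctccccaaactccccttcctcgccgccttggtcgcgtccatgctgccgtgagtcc
Rph3a, chr5:121009539-121009788, minus strand: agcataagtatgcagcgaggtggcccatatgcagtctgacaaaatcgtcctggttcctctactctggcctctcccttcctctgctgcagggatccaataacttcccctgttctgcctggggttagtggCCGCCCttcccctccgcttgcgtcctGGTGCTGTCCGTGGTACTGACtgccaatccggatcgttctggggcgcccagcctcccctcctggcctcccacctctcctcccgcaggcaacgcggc
Syp, chrX:7638330-7638470, plus strand: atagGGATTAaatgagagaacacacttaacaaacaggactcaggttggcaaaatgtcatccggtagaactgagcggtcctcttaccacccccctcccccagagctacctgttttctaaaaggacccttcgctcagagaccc
A match says that the letters are present, and no binding was measured here.

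Within groups of 3 libraries the members did not vary alike. Ranked by the summed photoreceptor markers of each library, a comparison chosen after the values were seen and given as a description without a test, Stx3 and Syp stood in the same order as that sum in 5 of the 6 groups of 3, and Sypl in 4. These groups are not separate observations: in RWB D22, RWB D25, SSCd D22 and SSCd D28 the marker order of the replicates was the same, and libraries that share a replicate number shared part of their deviation from the group means (correlations of 0.20 to 0.49 in the 3 comparisons of these groups computed). Syn1, Sv2a, Syt11, Rph3a and Rab3c stood in exactly the opposite order in 4 of the 6. Over all genes tested, 9.15% to 24.7% stood in the same order and 8.52% to 26.0% in the opposite order in a given group. The share of all genes that did so in 4 or 5 of the 6 groups was not computed. The orders are therefore not read as a trait of the genes named. At SSCd D28 the photoreceptor sum was 9400, 7040 and 3950 CPM in replicates 1 to 3, Stx3 was 859, 779 and 451 CPM, Syn1 was 31.1, 39.2 and 89.3 CPM, and the amacrine marker sum was 866, 924 and 1640 CPM. At SSCd D22 the photoreceptor sum was 8410, 5170 and 2890 CPM, Stx3 was 539, 341 and 239 CPM, Syn1 was 17.4, 25.0 and 50.3 CPM, and the amacrine sum was 776, 922 and 1420 CPM. At RWB D25 the photoreceptor sum was 5580, 5520 and 4750 CPM, Stx3 was 1142, 707 and 533 CPM, Syn1 was 37.4, 41.5 and 80.1 CPM, and the amacrine sum was 864, 1160 and 1540 CPM. In these 3 groups the libraries high in Stx3 were thus those low in Syn1 and in the amacrine marker sum. Pax6 held the largest part of that sum, with 347, 372 and 674 CPM at SSCd D28, 405, 480 and 721 CPM at SSCd D22 and 401, 552 and 618 CPM at RWB D25. Not every amacrine marker ran with the sum: at SSCd D28 Gad1 and Tfap2a did, while Slc6a9 was at 120, 103 and 86.1 CPM. Replicate 1 of SSCd D22 and of RWB D25 also had a high mitochondrial share, and the part of either in the orders was not tested.

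**Figure D5:**
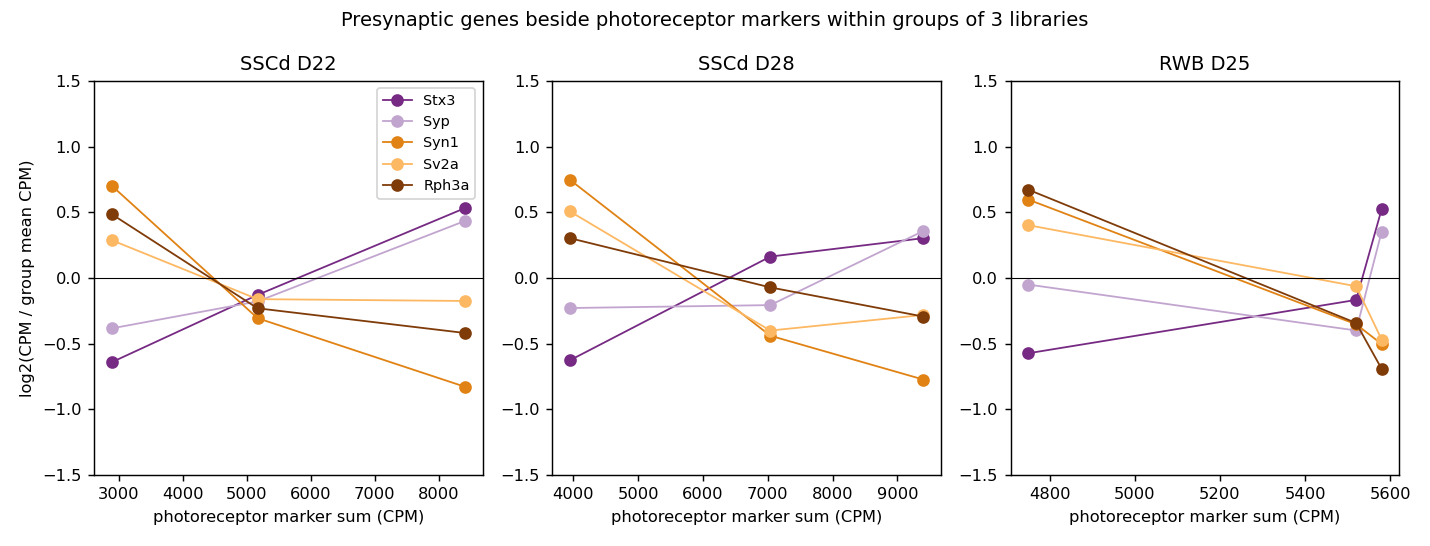
Level of 5 presynaptic genes relative to the mean of their group, as log2(CPM / group mean CPM) (y axis), against the summed photoreceptor markers of the library (CPM, x axis), in the 3 libraries of SSCd D22, SSCd D28 and RWB D25, joined by lines. Stx3 goes up and Syn1 and Rph3a go down along the x axis in each of these 3 groups, while Syp at RWB D25 and Sv2a at SSCd D28 follow neither order.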

How the data were processed

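RNA of 24 libraries in 9 groups was analysed from the estimated counts per gene and per transcript that the authors deposited; per the submitters' processing notes, kallisto 0.42.5, edgeR 3.13.9, limma 3.32.2 and GRCm38.p5 were used, with no roles stated, and how transcripts were combined into genes is not given in the sources used here. A deposited table of normalized values was not used. Symbols were taken for 33331 of 33846 gene identifiers, and 103635 of 105129 transcripts were matched to genes (GENCODE M21, GRCm38). Estimated counts were rounded (42.1% were whole). Genes passing filterByExpr (16792) were fitted in edgeR 4.0.16 (R 4.3.3) with TMM scaling, 9 group means, robust quasi-likelihood dispersions (median biological coefficient of variation 0.256) and Benjamini-Hochberg adjustment at 0.05. CPM values are TMM scaled. The tests were checked on simulated counts.

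A transcript's share is its part of the summed counts of the gene's matched transcripts, and levels per kilobase divide each transcript's CPM by its GENCODE length. Transcripts were named where the mean share was at least 15% in a gene of at least 20 CPM and last-day and D18 shares did not overlap, in the same direction, in at least 2 cultures. Full values by library are given for up to 3 members of each role called in the most comparisons (ties by the larger median absolute log2 change), and for every member called against the majority. In the other gene lists, the genes named come from the 4 of lowest p in the direction most of the list took and the 2 of lowest p in the opposite one. The members, lists and tests were chosen with earlier results of these data known. The labels call repeated experiments biological replicates without saying which libraries share a culture, so p-values measure the spread between these samples.

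Same-numbered libraries deviated together (correlations of deviations from the group means above 0.1 in each of 3 pairs) between RWB D22 and D25, SSCd D18 and D22, SSCd D22 and D28, and RWB and SSCd at D22, with values from 0.12 to 0.49. The alternatives were no filter on low counts, RLE scaling, DESeq2 1.42.0, the replicate number as a block, a fit of the compared groups alone, leaving out the 4 libraries of highest mitochondrial share, and leaving out each library in turn. Figures were drawn with matplotlib 3.10.9.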

Additional observations from a re-analysis of the deposited data

How the results depend on the processing

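Out of the 34 genes, the number called from D18 to the last day stayed within 1.5 times of its main value under every alternative run, and no named gene reversed direction where called. Counts in the shorter steps and between cultures moved more. With the replicate block, 10 were called from D22 to D25 in RWB, 14 from D22 to D28 in SSCd, 2 between SSCd and SSCi at D18 and 10 between RWB and SSCi at D25 (7 higher and 3 lower in RWB). The block moved no other count by over 1.5 times. What libraries of the same number share is not stated in the labels. Their deviations correlated at 0.226 and 0.112 between SSCd and SSCi at D18, and at 0.317 and 0.0811 between RWB and SSCi at D25. Fitting the compared groups alone gave 0 from D22 to D25 in RWB, 12 from D18 to D22 in SSCd, 18 from D25 to D32 in SSCi (14 higher, 4 lower), 0 between RWB and SSCd at D22, 0 between SSCd and SSCi at D18 and 0 between RWB and SSCi at D25. DESeq2 called 10 from D22 to D25 in RWB, 14 from D22 to D28 in SSCd and 4 between SSCd and SSCi at D18. Without the 4 libraries of highest mitochondrial share, 14 were called from D22 to D28 in SSCd and 0 between RWB and SSCd at D22, and with no filter on low counts 0 were called in the latter. Why these counts moved was not tested. Leaving out each library in turn gave 19 to 25 calls from D18 to D25 in RWB, 21 to 24 from D18 to D28 in SSCd and 23 to 27 from D18 to D32 in SSCi. It gave 10 to 18 from D18 to D22 and 2 to 6 from D22 to D25 in RWB, 13 to 20 from D18 to D22 and 5 to 11 from D22 to D28 in SSCd, and 19 to 26 from D18 to D25 and 4 to 6 from D25 to D32 in SSCi. Between cultures it gave 0 to 1 at D22 for RWB and SSCd, 0 to 3 at D18 for SSCd and SSCi, 2 to 6 at D25 for RWB and SSCi, and 0 at D18 for RWB and SSCd and for the test of their D18 to D22 changes. Where a group of 2 lost a library, the lone sample was assumed to vary like the other groups. The number of named transcripts was 19 to 22. Groups of 2 or 3 libraries limit all calls, and Syn2, Syt2, Sv2c and Slc17a6 rest on low counts.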

Other observations

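Counted over all 34 genes, the order of the libraries within a group of 3 matched that of the summed photoreceptor markers in 5 genes at RWB D22, 5 at RWB D25, 6 at SSCd D18, 6 at SSCd D22, 6 at SSCd D28 and 6 at SSCi D32. Of all 16792 genes tested, 21.1%, 24.7%, 9.15%, 23.3%, 19.9% and 19.2% stood in that order in the same groups. The opposite order was held by 8 of the 34 genes at RWB D22, 12 at RWB D25, 0 at SSCd D18, 12 at SSCd D22, 10 at SSCd D28 and 8 at SSCi D32, and by 24.4%, 26.0%, 8.52%, 23.6%, 21.7% and 16.5% of all genes. The counts of the 34 genes are therefore not read as a trait of these genes. The orders were looked at after the values were seen and were not tested.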
